A study of Mus musculus with 2 samples.

Results

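The genes that steer dendritic cell fate were followed in immune cells of mouse melanomas: the transcription factor genes Irf8, Irf4, Batf3, Id2, Zbtb46, Klf4, Tcf4 and Zeb2, and the receptor gene Flt3. They were chosen by gene symbol, and all 9 were found among the 32285 genes counted. The cells came from tumours of B16-F10, a mouse melanoma line, collected 14 days after injection. One group of 3 tumours was made with line cells labelled FDPS-knockout (KO), after Fdps, whose product makes farnesyl diphosphate in the mevalonate pathway, and the other 3 with cells labelled WT, whose title also holds the letters VC, which the labels do not explain. Live cells with CD45, a protein of all white blood cells, were sorted after digestion with collagenase D and DNase I, so most cells measured are the host's while the knockout is in the tumour line. The strain, age and sex of the mice are not given in the sources used here. Each group gave 1 droplet library in which its tumours cannot be told apart, so the values below compare 2 libraries with no replicate and no test between groups.

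Dendritic cells (DCs) take up antigen and show it to T cells. Conventional type 1 DCs (cDC1) depend on IRF8 and BATF3 and on ID2, which binds E proteins and keeps them from DNA. Conventional type 2 DCs (cDC2) rely more on IRF4, KLF4 and ZEB2, and plasmacytoid DCs (pDCs), known for interferon, depend on the E protein TCF4, which ID2 opposes. FLT3 is the receptor through which FLT3 ligand drives DC development, and ZBTB46 marks conventional DCs among myeloid cells.

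After filtering, 8062 knockout and 8595 WT cells were left, and 30 cell barcodes occurred in both libraries, 14 of them among the cells kept. Clusters were named from marker genes that did not include the 9 genes, and each class name below stands for cells like that type. In the knockout and WT library, respectively, there were 267 and 139 cDC1, 530 and 315 cDC2, 123 and 164 mature DCs (Ccr7 and Fscn1 cells), 161 and 32 pDCs, 490 and 948 monocytes and 336 and 2840 macrophages. All 9 markers were detected in the cDC1 and pDC clusters, all 10 in the mature DC cluster, 8 of 9 in each cDC2 cluster, at least 8 of 9 in each monocyte cluster and all 9 in each macrophage cluster, where detected means in at least 25% of cells. Another 755 knockout and 8 WT cells, led by Retnla, Lyz1 and Fcrls, had markers of several phagocytes and are called unresolved phagocytes. Their clusters M1 and M7 scored highest for cDC2, at 0.449 and 0.494, above the named cDC2 clusters M0 (0.319) and M8 (0.426). M1 was set apart because genes of another class led it, and M7 by a rule added after seeing the data. Levels are counts of unique molecular identifiers (UMIs) summed over a class and scaled to the sum of all its UMIs (CPM). Each class held between 455468 and 62611869 summed UMIs in a library. Intervals are exact 95% intervals and cover counting error only. Fdps itself could be read in the few melanoma cells that passed the sort, at 89.0 CPM (76.0 to 104) in 14 knockout cells and 399 CPM (391 to 407) in 217 WT cells. It was also lower in the knockout library in each of the 6 classes of host cells, for example at 298.7 against 402 CPM in pDCs and 9.21 against 30.4 CPM in macrophages. Because Fdps was also lower in host cells, and only 14 knockout melanoma cells were read, the value in melanoma cells does not check the labels. The counted part of the transcript may also lie outside the deleted part.

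The genes that differed most between the libraries in cDC2 were Flt3 and Klf4, and the 250 bases before their start sites are shown because RefSeq and GENCODE vM21, the annotation used for positions, place the start of each at nearly the same base. Flt3 spans chr5:147330741-147400489 and Klf4 chr4:55527143-55532466, both on the minus strand of GRCm38. Capitals mark the E-box CANNTG, the letters that E proteins such as TCF4 can bind, searched on both strands, which read alike.
Flt3, chr5:147400490-147400739: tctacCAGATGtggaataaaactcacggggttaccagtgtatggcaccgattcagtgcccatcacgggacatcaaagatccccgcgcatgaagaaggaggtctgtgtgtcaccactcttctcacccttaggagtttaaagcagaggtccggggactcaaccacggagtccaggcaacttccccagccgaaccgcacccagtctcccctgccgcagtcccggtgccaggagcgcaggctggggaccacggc
Klf4, chr4:55532476-55532725: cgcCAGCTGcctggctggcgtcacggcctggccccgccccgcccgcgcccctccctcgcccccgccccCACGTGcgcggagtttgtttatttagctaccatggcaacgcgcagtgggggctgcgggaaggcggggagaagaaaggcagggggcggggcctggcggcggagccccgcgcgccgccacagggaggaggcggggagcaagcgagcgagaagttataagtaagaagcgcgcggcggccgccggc
The Flt3 window held 1 E-box and the Klf4 window 2, and 66.2% of the 32536 mouse promoter windows of this length in the RefSeq table (GRCm38.p6) held at least 1. Neither window held CACCTG, the form of the E-box bound by ZEB factors, found in 17.3% of all windows. Neither held the interferon response element, found in 2.98% of all windows, or the AP-1 element TGANTCA, found in 6.73%. The bases were GC-rich at Klf4 (74.0%) and less so at Flt3 (59.2%). Such matches describe letters and no binding was measured.

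Of the 54 combinations of gene and class, 45 had a mean of at least 10 CPM and could be compared. A gene is called higher or lower in the knockout library here when log2 of CPM plus 5 differed by at least 1.5-fold. On that scale 12 combinations were higher, 6 were lower and 27 lay within the limit. In cDC1, 2 of 8 measured members were higher and 0 lower, against 12.5% and 5.87% of all genes. In cDC2, 2 of 9 were higher and 1 lower, against 12.8% and 6.61%. In mature DCs, 1 of 8 was higher and 0 lower, against 21.9% and 14.3%. In pDCs, 0 of 7 were higher and 3 lower, against 13.6% and 10.0%. In monocytes, 2 of 6 were higher and 0 lower, against 13.6% and 7.54%. In macrophages, 5 of 7 were higher and 2 lower, against 26.1% and 18.1%. Counts this small are not read as a result about the members as a set. All 7 measured members passed the limit in macrophages, for which the 2 libraries drew their cells from different clusters.

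**Figure D1:**
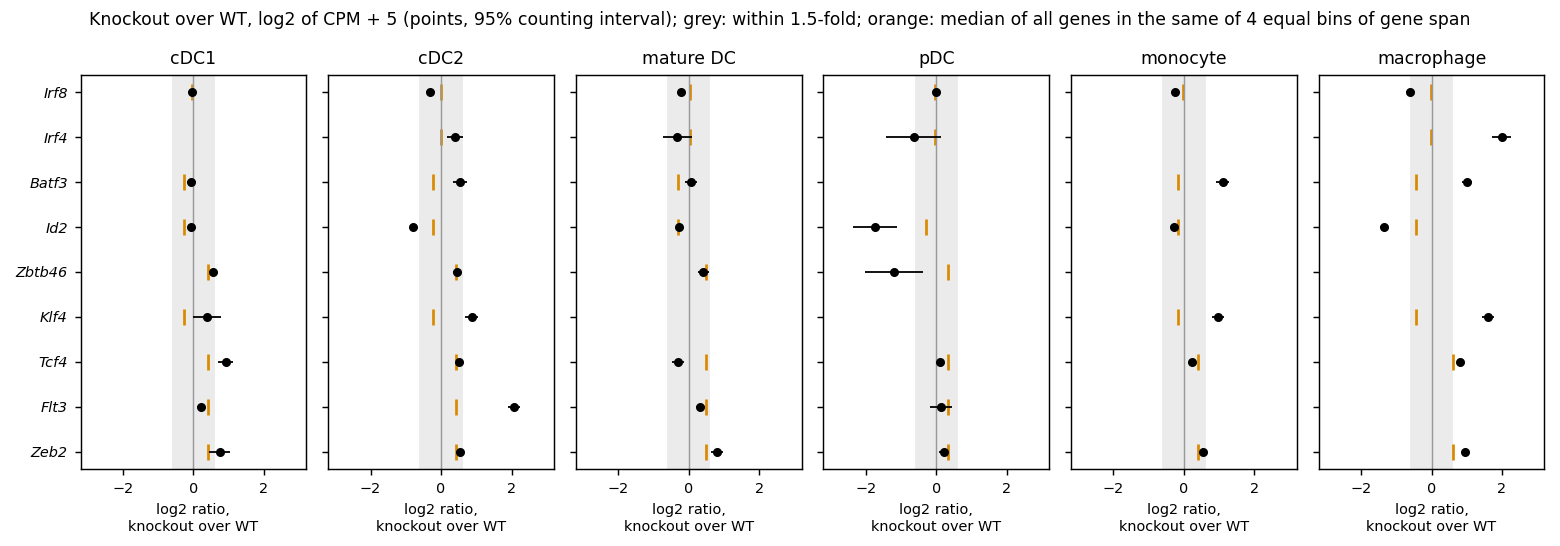
Log2 ratio of knockout over WT (x axis, from CPM plus 5) for each member (y axis) in the 6 classes, with members under 10 CPM left out. Bars are 95% counting intervals, the grey band is the 1.5-fold limit and the orange ticks are the median of all genes in the same of 4 equal bins of gene span. Flt3 in cDC2 stands at 2.06, and Id2 is the member furthest left in cDC2, pDCs and macrophages.

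The length of a gene moved with its ratio over all genes, and this touches the long members and any long gene in the lists below. In each class the median log2 ratio of all genes was between -0.43 and -0.18 in the bin with the shortest gene spans, of 4 equal bins, and between 0.32 and 0.62 in the bin with the longest. Zbtb46 (71.7 kb), Tcf4 (346 kb), Flt3 (69.7 kb) and Zeb2 (134 kb) lie in the longest bin and Batf3 (11.1 kb), Id2 (3.34 kb) and Klf4 (5.32 kb) in the shortest. The ratios of Zbtb46 in the conventional DCs, 0.55 in cDC1, 0.44 in cDC2 and 0.41 in mature DCs, lay close to the medians of 0.42, 0.43 and 0.48 for genes of like span. The part of gene length in the ratios was not tested.

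**Figure D2:**
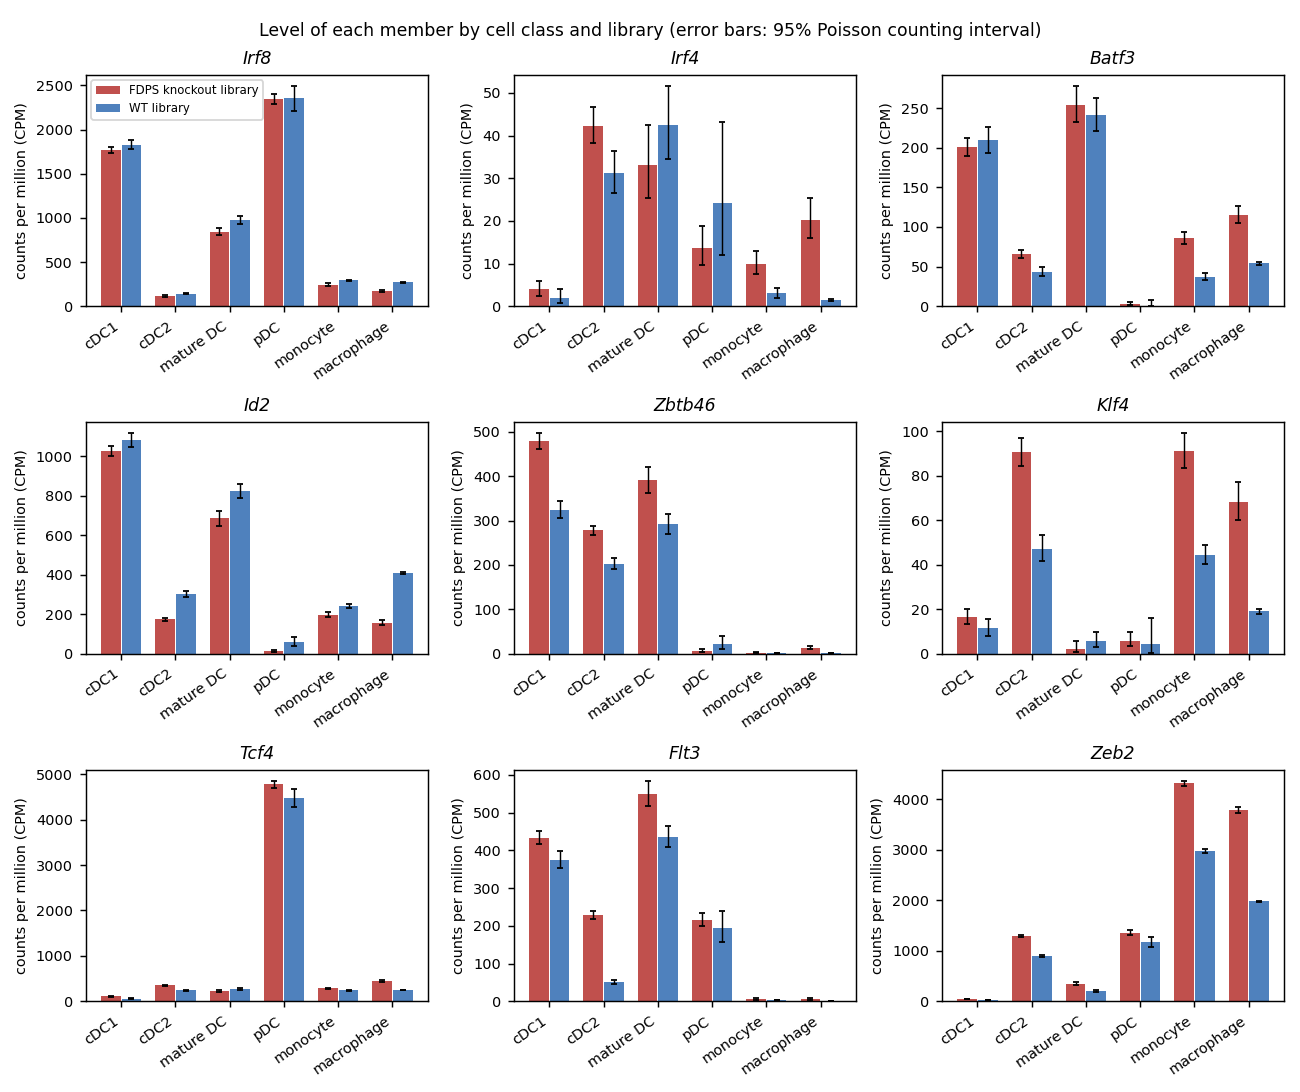
Level of each member in CPM (y axis, from 0, a separate scale for each gene) in the 6 classes (x axis) and 2 libraries, with 95% Poisson intervals. Irf8 and Tcf4 peak in pDCs, Id2 and Zbtb46 in cDC1, Zeb2 in monocytes in both libraries, and the Flt3 bars of cDC2 stand at 228 CPM (knockout) and 50.8 CPM (WT).

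Flt3, the receptor for FLT3 ligand, showed the widest gap of any member in the DCs. Its level in cDC2 was 228 CPM in the knockout library and 50.8 CPM in the WT library, from 2082 and 272 UMIs. This was 4.50-fold higher in the knockout library (interval 3.96 to 5.12), or 2.06 on the log2 scale, against a median of 0.43 for genes of like span. The gap stood in both cDC2 clusters, at 199.5 against 68.9 CPM in the smaller (M0, 53 and 26 cells) and 235.2 against 47.4 CPM in the larger (M8, 477 and 289 cells). With every cell thinned to 2000 UMIs, 32.6% of knockout cDC2 (28.5 to 37.0) and 10.9% of WT cDC2 (7.62 to 14.95) kept a Flt3 UMI, while T cells, which should lack the gene, kept one in 0.363% and 0.0919%. Thinning left out 46 knockout and 12 WT cDC2 with fewer UMIs. Without thinning the shares in cDC2 were 66.4% and 34.3%, at median depths of 15848 and 15185 UMIs, and in T cells 1.47% and 1.06%, at 10578.5 and 17414.5 UMIs.

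The other DCs carried similar Flt3 levels in both libraries. In cDC1 the levels were 433 and 375 CPM, a ratio of 1.15 (1.08 to 1.24). In mature DCs they were 550 and 436 CPM, a ratio of 1.26 (1.16 to 1.38). In pDCs they were 216 and 195 CPM, a ratio of 1.11 (0.885 to 1.40). Knockout cDC2 thus stood level with pDCs, with overlapping intervals, while WT cDC2 stood below them. Monocytes and macrophages were at 6.31 CPM or less in both libraries.

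Cells called cDC2 differed between the libraries in other ways that go beside the Flt3 values. Summed over 9 monocyte markers, the level in cDC2 was 1588 CPM in the knockout and 2802 CPM in the WT library. Of the 6 that were measured, Plac8 and Ms4a4c were lower and F13a1 higher in the knockout library, and none of the 9 was at 0. Of 9 macrophage markers 6 were measured, of which C1qa, C1qb, C1qc and Apoe were lower and Adgre1 higher, with sums of 261 and 329.9 CPM. Of all genes in cDC2 12.8% were higher and 6.61% lower. Whether monocyte-derived cells within the class have a part in the Flt3 gap was not tested. When the myeloid cells were clustered at resolution 2.0, 452 knockout and 40 WT cells were left as cDC2, and the log2 ratio of Flt3 was 0.92. With the unresolved phagocytes counted as cDC2 it was 1.04, against 2.06 as reported.

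Zbtb46 was highest in the conventional DCs and mature DCs of both libraries. Its level was 479 and 325 CPM in cDC1, 278 and 203 CPM in cDC2, and 391 and 292 CPM in mature DCs, in the knockout and WT library. Each of these was higher in the knockout library by less than the limit, with ratios from 1.34 to 1.47. In monocytes it was 2.46 and 1.505 CPM. In macrophages, under the mean of 10 CPM, it was 12.998 and 1.28 CPM, a ratio of 10.2 (6.96 to 14.7) from 48 and 80 UMIs. The log2 ratio in cDC2, 0.44, turned to -0.39 when single cells were gated by markers and to -0.52 when the unresolved phagocytes were counted as cDC2. In cDC2 thinned to 2000 UMIs, cells with both Flt3 and Zbtb46 made up 12.4% of the knockout and 4.29% of the WT cells, and those with Zbtb46 alone 23.8% and 25.7%.

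The cDC1 factors were level in cDC1 themselves. Irf8, the factor on which cDC1 identity rests, was at 1771 CPM in the knockout and 1829 CPM in the WT library, a ratio of 0.968 (0.937 to 1). Batf3, its partner at cDC1 enhancers, was at 200.3 and 209 CPM, a ratio of 0.958 (0.870 to 1.06). Id2 was at 1026 and 1080 CPM, a ratio of 0.950 (0.911 to 0.991). None of these intervals, which cover counting error only, goes below 0.870 or above 1.06. Genes of like span to Batf3 and Id2 had a median log2 ratio of -0.25. With cells thinned to 2000 UMIs the log2 ratio of Batf3 was -0.36, within the limit. A Batf3 UMI was kept in 30.2% of knockout (24.7 to 36.2) and 38.1% of WT cDC1 (29.8 to 46.8).

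Of the 4 members that cDC1 hold low, Tcf4 and Zeb2 were higher past the limit in the knockout library. Klf4, at 16.5 and 11.4 CPM, was within it (ratio interval 0.977 to 2.18), and Irf4, at 3.96 and 1.90 CPM, was too low to compare. Tcf4 in cDC1 was at 106 CPM in the knockout and 54.2 CPM in the WT library, a ratio of 1.96 (1.65 to 2.34) where genes of like span had a median log2 ratio of 0.42 and Tcf4 had 0.91. After thinning, 19.4% of knockout and 8.21% of WT cDC1 kept a Tcf4 UMI (62.9% and 48.2% without thinning), against 3.26% and 1.59% of neutrophils. T cells kept one in 4.62% and 11.4% (16.2% and 46.5% without thinning), in the WT library more often than cDC1, so the WT share in cDC1 is not read as expression. Tcf4 was at 62.6 CPM in WT T cells and 11.4 CPM in WT neutrophils, so these cells set different floors. Zeb2, a repressor of the cDC1 program, was at 48.2 and 26.6 CPM, a log2 ratio of 0.75 that stayed past the limit in 13 of 18 other settings and turned to -0.58 when doublets were kept. Some of the 18 act only on other classes or on the filter and left the value at 0.75, so they are no check of it. The log2 ratio of Zeb2 was 0.36 after thinning and 0.52 with single cells gated by markers, both under the limit. Genes of like span had a median of 0.42. A single cell held 22.5% of the Zeb2 UMIs in knockout and 33.3% in WT cDC1, and without both the log2 ratio was 0.90. Subtracting the free RNA estimated from T cell receptor genes left Zeb2 at 30.1 CPM in the knockout and 0 CPM in the WT library, and Tcf4 at 104 and 50.7 CPM. Zeb2 also shares its locus with the antisense gene Zeb2os, and no source used here says whether counting used the strand, so reads of both cannot be told apart. Of cDC1 cells 32.2% in the knockout and 46.8% in the WT library carried at least 2 of 5 cell division genes, and without these cells the log2 ratio of Zeb2 in cDC1 fell under the limit while that of Tcf4 stayed past it.

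Mature DCs are DCs of either conventional type that have taken up antigen and switched on Ccr7. Irf8 there was at 846 CPM in the knockout and 976 CPM in the WT library, Batf3 at 254 and 241 CPM, Id2 at 686 and 822 CPM and Irf4 at 33.1 and 42.4 CPM, all within the limit. Zeb2 was the exception, at 347 and 197 CPM, a ratio of 1.76 (1.56 to 1.99), and its log2 ratio of 0.80 became 0.31 with doublets kept. Genes of like span had a median log2 ratio of 0.48. The share of mature DCs with a Zeb2 UMI was 55.3% and 54.3%, and 31.7% and 23.0% after thinning. A single knockout cell held 16.2% of the Zeb2 UMIs and a single WT cell 11.6%. Without these cells the log2 ratio was 0.72. Of 10 genes that IRF8 and BATF3 hold on in cDC1, 8 were measured in mature DCs and all 8 were higher in the knockout library, where 21.9% of all genes were higher. Their median log2 ratio was 1.33, against 0.14 for all genes. Wdfy4, needed for cross-presentation, was at 305 CPM in the knockout and 20.8 CPM in the WT library, and Cadm1, an adhesion molecule of cDC1, at 182 and 26.4 CPM. All but Ppt1 of these 10 are also cDC1 markers used for naming clusters, so the list is not independent of the names, and the sum of the 9 cDC1 markers in mature DCs was 821 and 181 CPM. In cDC1 all 10 of the list were measured, with 0 higher and 2 lower, against 12.5% and 5.87% of all genes. The 2 were Xcr1, at 291 and 479 CPM, and the integrin gene Itgae, at 156 and 427 CPM.

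Among the cDC2 factors Klf4 differed and Irf4 less so. Klf4, a zinc finger factor needed by a subset of cDC2 and by monocytes, was at 90.6 CPM in knockout and 47.3 CPM in WT cDC2, a ratio of 1.92 (1.66 to 2.22). Klf4 was past the limit in the larger cDC2 cluster M8, at 89.3 against 43.2 CPM. In M0, at 96.3 against 68.9 CPM, its log2 ratio of 0.46 was within the limit and the intervals of the levels overlapped. After thinning, 14.3% of knockout and 7.26% of WT cDC2 kept a Klf4 UMI (45.3% and 34.3% without thinning), against 0.580% and 0.184% of T cells. Irf4 in cDC2 was at 42.4 and 31.2 CPM, a ratio of 1.36 (1.13 to 1.64). Its log2 ratio of 0.39 ranged from -0.21, at myeloid resolution 2.0, to 0.97, with the unresolved phagocytes counted as cDC2, and was past the limit in 6 of 18 other settings. Batf3 in cDC2 was at 65.5 and 43.2 CPM, a ratio of 1.52 (1.30 to 1.77) that on the scale with 5 CPM added came to 0.55, under the limit. It ranged from 0.23 at myeloid resolution 2.0 to 1.63 with the unresolved phagocytes counted as cDC2, and was past the limit in 6 of 18 other settings, among them 0.79 with both clusters weighted equally.

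In monocytes Klf4 was at 91.0 CPM in the knockout and 44.5 CPM in the WT library, a ratio of 2.05 (1.79 to 2.33). It was higher in each of the 3 monocyte clusters, at 75.7 against 10.2 CPM (M2, with 3 UMIs in its 30 WT cells), 152 against 95.1 CPM (M3) and 114 against 33.0 CPM (M4). Genes that respond to tissue digestion were also higher in several classes. The sum of Fos, Jun, Hspa1a, Hspa1b and Dusp1 was 5408 and 1944 CPM in monocytes and 2044 and 715 CPM in cDC2. It was 805 and 275 CPM in cDC1, where Klf4 was within the limit. In these classes 4, 4 and 5 of the 5 genes were higher and none was at 0. Of all genes 13.6%, 12.8% and 12.5% were higher there. In macrophages, where Klf4 had a ratio of 3.56, the sum was 1593 and 963 CPM, with 3 of the 5 genes higher, against 26.1% of all genes. In mature DCs that sum was 447 and 483 CPM, with Hspa1a and Hspa1b higher and Jun and Dusp1 lower. Klf4 there, at 2.17 and 5.63 CPM, was too low to compare. The part of digestion in the Klf4 values was not tested.

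Id2 in cDC2 went the other way. It was at 174 CPM in the knockout and 304 CPM in the WT library, 1.75-fold lower in the knockout library (1.63 to 1.87), or -0.79 on the log2 scale against -0.22 for genes of like span. In M8 it was lower past the limit, at 147 against 284 CPM. In M0, at 292 against 413 CPM, the log2 ratio of -0.49 went the same way but was within the limit. The direction depends on where the border of cDC2 is drawn. It was 0.06 when single cells were gated by markers and 0.16 when the unresolved phagocytes, which held 466 CPM of Id2 in the knockout library, were counted as cDC2.

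The opposed pairs put these values together. The number of Tcf4 UMIs over Id2 UMIs in cDC2 was 1.01 on the log2 scale in the knockout library (0.92 to 1.09) and -0.33 in the WT library (-0.43 to -0.22), so the more abundant count over the whole class was Tcf4 in the first and Id2 in the second. This order came from the larger cluster M8, with 2889 Tcf4 and 1083 Id2 UMIs in the knockout and 1110 and 1281 in the WT library. In M0 Id2 UMIs outnumbered Tcf4 UMIs in both libraries, at 292 against 172 CPM in the knockout and 413 against 224 CPM in the WT library. The log2 ratio of Tcf4 between the libraries was -0.37 in M0, within the limit. The log2 ratio of Tcf4 in cDC2 between the libraries, 0.52, turned to -0.19 at myeloid resolution 2.0, to -0.17 with the marker gate and to -0.17 with the unresolved phagocytes counted as cDC2. At cell level, after thinning, 29.3% of knockout cDC2 had Tcf4 without Id2 and 14.9% Id2 without Tcf4, while in WT cDC2 both shares were 25.1%. In mature DCs the ratio was -1.65 and -1.60 and did not differ beyond its intervals. For Irf8 over Irf4 the log2 ratio in cDC2 was 1.44 (1.27 to 1.62) in the knockout and 2.20 (1.96 to 2.45) in the WT library, and in mature DCs 4.68 and 4.52, with overlapping intervals. The lower value of knockout cDC2 depends on the clusters: at myeloid resolution 2.0 the log2 ratio between libraries was 0.17 for Irf8 and -0.21 for Irf4, in place of -0.30 and 0.39. These count ratios hold the lengths of both transcripts, so they do not show which gene is transcribed more. Differences between the libraries also hold the trend with gene span. In cDC2 the median log2 ratio was 0.43 for genes of like span to Tcf4 and -0.22 for genes of like span to Id2. The part of gene length in the shift of Tcf4 over Id2 was not tested.

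**Figure D3:**
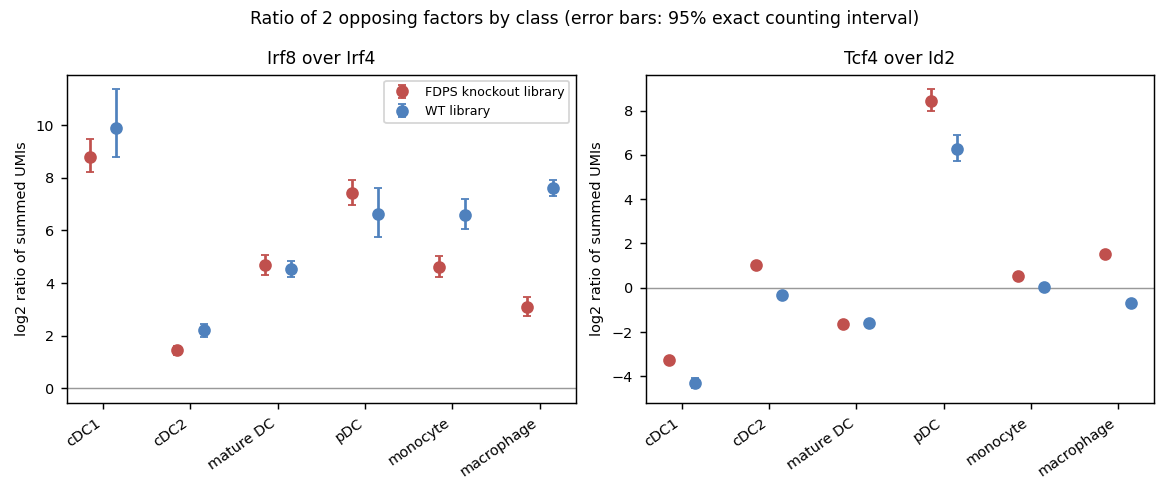
Log2 ratio of summed UMIs (y axis) of Irf8 over Irf4 (left) and Tcf4 over Id2 (right) in the 6 classes (x axis) for the knockout (red) and WT (blue) library, with exact 95% counting intervals. The pDC points lie above 6 in both panels, the mature DC points of the 2 libraries nearly coincide, and the widest gap is in macrophages, at 3.11 against 7.60 on the left.

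In pDCs the factors that define them were level. Tcf4 was at 4775 CPM in the knockout and 4468 CPM in the WT library, a ratio of 1.07 (1.02 to 1.12), Irf8 at 2348 and 2354 CPM, a ratio of 0.998 (0.935 to 1.07), and Zeb2 at 1363 and 1175 CPM, a ratio of 1.16 (1.06 to 1.27). Tcf4 was 10.7-fold higher in pDCs than in the next class of the knockout library and 16.5-fold higher in the WT library. The 3 members called lower in knockout pDCs were genes that pDCs hold very low, and they rest on few molecules in 32 WT cells.

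Id2 in pDCs was at 13.6 CPM in the knockout and 57.1 CPM in the WT library, from 37 and 26 UMIs. A single WT cell held 19 of those 26 UMIs (73.1%). Without the cell of each library that held the most, the levels were 12.7 and 16.05 CPM and the log2 ratio went from -1.74 to -0.25. Irf4 was at 13.6 and 24.2 CPM, from 37 and 11 UMIs, with an interval of the ratio from 0.282 to 1.23 and a log2 ratio of -0.38 without those cells. Zbtb46 was at 6.64 and 22.0 CPM, from 18 and 10 UMIs, with no UMI left in any WT pDC after thinning, and its log2 ratio of -1.21 became -0.20 with doublets kept and -0.51 with the marker gate, both within the limit. Markers of other cells moved with these values: 6 of 8 T cell markers were measured and all 6 were lower in knockout pDCs, with sums of 64.5 and 198 CPM and none of the 8 at 0. Of all genes 10.0% were lower there. Read from 6 T cell receptor and CD3 genes, RNA from outside the cell would make up 2.22% of knockout and 12.4% of WT pDC UMIs. Subtracting it left Id2 at 4.47 and 11.9 CPM, Irf4 at 13.1 and 25.9 CPM and Zbtb46 at 5.38 and 22.0 CPM.

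Monocytes depend on KLF4 and ZEB2, and in monocytes and macrophages the libraries drew on different clusters. Of the knockout macrophages 83.6% lay in 1 cluster (M5, led by Cd163, Cd209f and Lyve1), which held 2.85% of the WT macrophages, most of which lay in 5 other clusters (M11 to M15). Of the knockout monocytes 70.0% lay in a cluster with Fos, Il1b and Ptgs2 (M2), and of the WT monocytes 68.2% in a cluster with Vcan and Chil3 (M4). Of 9 macrophage markers 7 were higher in the knockout monocytes and of 9 monocyte markers 6 were lower, against 13.6% and 7.54% of all genes.

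**Figure D4:**
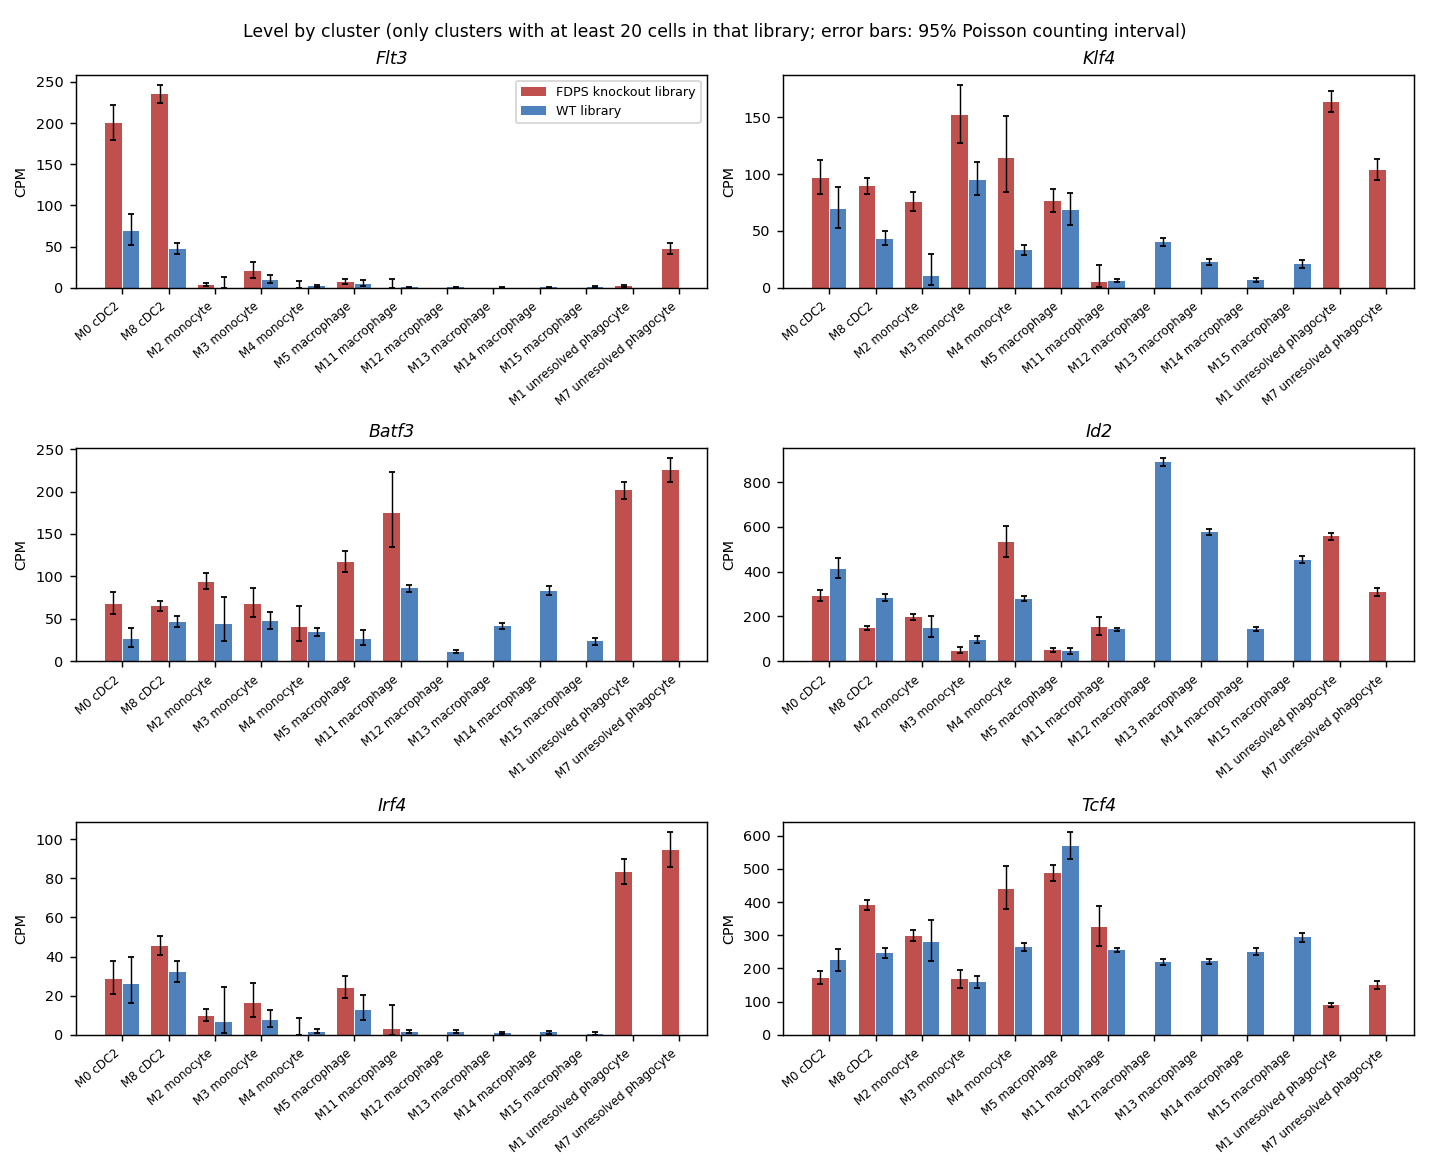
Level in CPM (y axis, from 0) of 6 members in each cDC2, monocyte, macrophage and unresolved phagocyte cluster (x axis) with at least 20 cells in that library, with 95% Poisson intervals, knockout in red and WT in blue. Within the Cd163 cluster M5, Batf3 is 117 against 26.7 CPM while the Klf4 and Id2 bars of the 2 libraries overlap, and the 2 unresolved phagocyte clusters, drawn for the knockout library only, carry the tallest Batf3 and Irf4 bars.

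Batf3 was higher past the limit in both macrophage clusters that could be compared. In all macrophages it was at 115 CPM in the knockout and 54.4 CPM in the WT library, a ratio of 2.12 (1.91 to 2.34). Inside the Cd163 cluster it was at 117 and 26.7 CPM, and in M11, the only other macrophage cluster with 20 cells in each library, at 175 and 85.8 CPM. In monocytes it was at 85.6 and 37.3 CPM, a ratio of 2.29 (2.00 to 2.64), with 93.9 against 44.2 CPM in M2, 67.3 against 47.5 CPM in M3 and 40.5 against 34.4 CPM in M4. T cells kept a Batf3 UMI in 0.774% and 0.138% of thinned cells, against 21.7% and 7.98% of macrophages (53.9% and 43.2% without thinning, at median depths of 9072 and 18963.5 UMIs).

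Inside the Cd163 cluster the gaps of the other members were smaller or turned sign. Klf4 was at 68.2 CPM in the knockout and 19.1 CPM in the WT macrophages, and at 76.0 and 68.2 CPM inside that cluster. Id2 was at 157 and 407 CPM in all macrophages, and at 49.7 and 44.5 CPM inside it. Tcf4 was at 444 and 251 CPM in all macrophages, and at 488 and 570 CPM inside it. Irf8 was at 175 and 269.8 CPM in all macrophages, and at 163 and 175 CPM inside it. Irf4 was at 20.3 and 1.39 CPM in all macrophages, a ratio of 14.6 (10.6 to 20.1), and at 24.0 and 12.6 CPM inside it, from 72 and 17 UMIs. Zeb2 was at 3791 and 1980 CPM in all macrophages and at 3957 and 2748 CPM inside it, a log2 ratio of 0.53 against 0.94, and in M11 it was at 3173 and 1730 CPM, a log2 ratio of 0.87. Irf4 in M11 had 1 knockout and 30 WT UMIs. Weighted equally over M5 and M11, the log2 ratios of Batf3 (1.30), Zeb2 (0.67) and Irf4 (0.60) stayed past the limit. Those of Klf4 (0.11), Id2 (0.11), Tcf4 (-0.02) and Irf8 (-0.0092) did not. Over all macrophages, genes of like span to Zeb2 and Tcf4 had a median log2 ratio of 0.62, beside 0.94 for Zeb2 and 0.81 for Tcf4. That median was not taken inside clusters or with equal weights.

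The unresolved phagocytes of the knockout library carried a mix of DC fate genes. Batf3 was at 210 CPM, beside 200.3 CPM in cDC1 of the same library, Klf4 at 141 CPM and Irf4 at 87.3 CPM, both higher than in any of the 6 classes of that library. Irf8, at 77.7 CPM, was below all 6, and Flt3 and Zbtb46 were at 19.0 and 37.0 CPM. The count of Irf8 UMIs over Irf4 UMIs was -0.17 on the log2 scale, the lowest of these 7 groups of cells in that library. These values pool clusters M1 and M7, which differed in the knockout library. Flt3 was at 2.33 and 47.3 CPM, Zbtb46 at 22.3 and 61.8 CPM, Irf8 at 97.7 and 43.8 CPM and Klf4 at 164 and 104 CPM. In the knockout monocyte cluster M3 Klf4 was at 152 CPM. The 8 WT cells were too few to compare.

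The other genes of these pathways were read from 7 lists. The lists are set beside all genes and were not matched for gene span. In the bin with the longest spans the median log2 ratio was 0.42 in cDC1, 0.43 in cDC2, 0.48 in mature DCs and 0.62 in macrophages. The part of gene length in the list values was not tested. Of 12 genes of FLT3 and growth factor signalling all were measured in cDC2: 1 was higher, the receptor gene Kit (141 CPM in the knockout and 80.1 CPM in the WT library), and 3 were lower, Csf2rb (143 and 250 CPM), Csf2rb2 (36.3 and 64.3 CPM) and Csf1r (33.4 and 59.0 CPM), with a list median of 0.22 against 0.11 for all genes, of which 12.8% were higher and 6.61% lower. In cDC1 1 of 9 was higher, again Kit (249 and 140 CPM), against 12.5% of all genes. In pDCs and monocytes none of 8 and none of 10 passed the limit in either direction. Of all genes 13.6% were higher in each of these 2 classes, and 10.0% and 7.54% lower. In macrophages 6 of 10 were higher, led by Csf1r, the receptor for macrophage growth factor (485 and 233 CPM), with a median of 0.66 against 0.13 and 26.1% of all genes higher.

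Of 7 pDC factors, 3 were higher in cDC2 and 1 was lower among 6 measured, against 12.8% and 6.61% of all genes, with a median of 0.51 against 0.11. Bcl11a was at 406 CPM in the knockout and 186 CPM in the WT library, Tcf12, an E protein like TCF4, at 193 and 93.6 CPM and Runx2 at 168 and 100.3 CPM. The same 3 were higher in cDC1, where Bcl11a was at 147 and 84.4 CPM. Irf7, the interferon factor, was the lower one in cDC2, at 106 and 233 CPM, and it was lower past the limit in cDC1, mature DCs, monocytes and macrophages too. In pDCs themselves none of the 7 was higher, and Tcf3 and Ikzf3 were lower on 19 and 15 WT UMIs, against 13.6% and 10.0% of all genes.

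Of 11 factors of cDC2 and of maturation, 5 of 8 measured were higher in cDC1 and none lower, with a median of 0.68 against 0.09 for all genes, of which 12.5% were higher. Relb, a subunit of the non-classical NF-kB pathway, was at 77.9 CPM in the knockout and 28.2 CPM in the WT library, Notch2 at 591 and 309 CPM and Nfkb2 at 52.3 and 28.6 CPM. In cDC2, 2 of 11 were higher and 1 lower, against 12.8% and 6.61%: Spib was at 21.7 and 3.55 CPM, Notch2 at 438 and 245 CPM and Runx3 at 82.3 and 130 CPM. In mature DCs 4 of 11 were higher and 2 lower, against 21.9% and 14.3%, with Relb at 1171 and 738 CPM and Runx3 at 53.7 and 146 CPM. In macrophages 3 of 9 were higher, against 26.1%, led by the Notch effector Rbpj at 2022 and 446 CPM.

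Of 8 further cDC1 factors, 1 of 6 was higher in cDC1, Etv6 (1707 and 1041 CPM), and none lower, a share near the 12.5% and 5.87% of all genes, with a median of 0.16 against 0.09. Nfil3, which acts upstream of ID2 in DC precursors, was lower in cDC2 (7.24 and 19.1 CPM), in mature DCs (13.01 and 121 CPM, from 24 and 279 UMIs) and in macrophages (15.7 and 38.3 CPM). Cbfa2t3 was higher in cDC2 (604 and 371 CPM) and in macrophages (78.0 and 8.53 CPM). Of 10 monocyte and macrophage factors, 3 of 8 were higher in cDC2 and 2 lower, against 12.8% and 6.61% of all genes, with a median of -0.28 against 0.11. The early response gene Nr4a1 was at 130 CPM in the knockout and 37.0 CPM in the WT library, while Cebpb was at 71.3 and 122 CPM. In monocytes 3 of 9 were higher and 2 lower, against 13.6% and 7.54%, with a median of -0.13 against 0.10, and with Nr4a1 at 279 and 130 CPM and Klf2 at 160 and 74.4 CPM. Of 12 family relatives of the members, 1 of 10 was higher in cDC2 and 3 of 10 in cDC1, with none lower in either, against 12.8% and 12.5% of all genes higher. In both the first was Zeb1, the paralog of Zeb2 (277 and 150 CPM in cDC2, 424 and 225 CPM in cDC1).

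Across the 12 values that 6 classes and 2 libraries give, the genes most like each member were sought among 8976 genes by Pearson r of log2 of CPM plus 5. These points share libraries, and the classes were set by other genes, so r is a description. Flt3 was most like Btla (r = 0.964) and Zbtb46 like Tmtc4 (0.962) and Kit (0.959). Zeb2 was most like Sirpa (0.976), a marker used for naming cDC2, Klf4 like Nrros (0.973), Batf3 like Sh3bp1 (0.958) and Tcf4 like Ralgps1 (0.967). Irf8 was most like Nek6 (0.932), Irf4 like Ube2h (0.918) and Id2 like Tmsb4x (0.931). Among the members the strongest opposition was between Id2 and Tcf4 (-0.91), followed by Batf3 and Tcf4 (-0.88), and the closest likeness between Batf3 and Id2 (0.88) and between Zbtb46 and Flt3 (0.81).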

How the data were processed

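Cells of 2 droplet libraries were counted. The authors deposited raw UMI counts per gene and barcode, which per the file headers came from Cell Ranger 7.2.0. The submitters' processing notes name mm10 as the build, and the annotation and library chemistry are not given in the sources used here. Cells with at least 200 genes and under 10% mitochondrial UMIs were kept, and the highest Scrublet scores were removed at 0.8% per 1000 barcodes (635 knockout and 820 WT cells), since its automatic threshold marked 0.0% and 1.53%. Clustering (scanpy 1.11.5) used 2000 variable genes without the 9 members, 30 components, 15 neighbours and Leiden resolution 1.0, again for myeloid cells. A name needed a lead of 0.1 over other cell types and 3 markers, each in 25% or more of the cells. Phagocyte clusters that failed the margin or were led by another class's genes are unresolved phagocytes, as are, by a rule added after seeing the data, DC clusters with no DC gene among their top 10 genes. Counts were summed per class and library, scaled to CPM and compared as log2 of CPM plus 5, for genes with a mean of at least 10 CPM. All 9 members were named, and from each list up to 3 genes per class in each direction past 1.5-fold, and the genes most like each member by Pearson r. Intervals are exact Poisson, binomial (Clopper-Pearson) or ratio intervals at 95%. Sums were tested on simulated data. With 1 library per group no model across genes was fitted, and 14 planned and 4 added alternatives were run. The members and lists were chosen with earlier results of these data known. Depth was 127186298 (knockout) and 208936136 (WT) UMIs, in 9130 and 10882 barcodes. Values of a listed gene that the naming rule picked are not reported here.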

Additional observations from a re-analysis of the deposited data

How the results depend on the processing

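Over 18 other settings, 4 of them chosen after seeing the data, the number of gene and class combinations higher in the knockout library was between 10 and 17 (12 as reported) and the number lower between 4 and 7 (6 as reported). Flt3 and Klf4 in cDC2, Klf4 and Batf3 in monocytes, Batf3 and Irf4 in macrophages and Tcf4 in cDC1 stayed past 1.5-fold in the same direction in every setting that gave them a value, with log2 ratios of Flt3 from 0.92 to 2.24 and of Klf4 in cDC2 from 0.68 to 1.20. Settings that act only on other classes or on the filter leave a value as it was, so not every setting is a check of each combination. Of log2 ratios past the limit as reported, 7 turned sign: Zeb2 in cDC1 with doublets kept (-0.58, 0.75 as reported), Id2 in cDC2 with a marker gate in single cells (0.0645) or unresolved phagocytes as cDC2 (0.16), against -0.79, Id2 in macrophages with clusters weighted equally (0.11) or without the Cd163 cluster (0.57), against -1.35, and Tcf4 in macrophages with clusters weighted equally (-0.0228) or unresolved phagocytes as macrophages (-0.40), against 0.81. Those with another class border or cluster weight hold other cells by construction, and for doublets the cause was not tested. Irf8 in macrophages, -0.61 as reported, fell within the limit in 6 of the 18 settings. Among ratios within the limit as reported, 27 values of 13 combinations also turned sign, so that 34 of 803 did in all. In cDC2 these were Irf8 (0.17), Irf4 (-0.21) and Tcf4 (-0.19) at myeloid resolution 2.0, and Tcf4 (-0.17) and Zbtb46 (-0.39) with the marker gate. Flt3 in cDC1 (-0.27 thinned), Id2 in monocytes (0.55 with clusters weighted equally) and Irf8 in monocytes (up to 0.26) were others. No paired analysis was possible because each group has 1 library. In WT pDCs, with 455468 summed UMIs, 3 UMIs are 6.59 CPM, so low genes there are limited by depth.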
